A study of Mus musculus and Rattus norvegicus with 2 samples.

Results

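Mature tRNAs carry a 3′ CCA tail that the genes do not encode. Small RNA reads that kept this tail were searched for among the tRNA-labelled reads of cauda epididymal sperm of the mouse and the rat. The members were tRNA-labelled reads of 18 to 45 nt whose last bases were CCA and whose first 18 nt did not match the 5′ end of a Gly, Glu, His, Val, Ala, Lys, Cys, Ser, Leu or Met tRNA. They numbered 91 distinct sequences with 1182 reads among 4773 tRNA-labelled sequences and 372238 reads in the mouse, and 108 sequences with 476 reads among 6399 sequences and 342754 reads in the rat. Over the whole series, the tables listed 86644 counted mouse sequences with 691381 reads and 137388 rat sequences with 2102735 reads.

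The study took purified sperm from the tail of the epididymis, where mature sperm are held. Mouse sperm came from the strain C57BL/6 at an age of 2 months, and rat sperm from young adult Sprague Dawley animals weighing 450 g. Total RNA was taken with Trizol, and the small RNA fraction was sequenced on an Illumina GAIIx. There was 1 library per species, and the sources do not state how many animals went into each, so no difference below has a replicate check and no test was made.

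A tRNA is the adaptor that brings an amino acid to the ribosome. An enzyme adds CCA to the trimmed 3′ end, and the amino acid is attached to the last A, so a read that ends in CCA at this place comes from a tRNA that had passed that step. Cleavage in the anticodon loop gives a long 5′ and a long 3′ fragment, cleavage in the T loop gives a short 3′ fragment, and sperm are known for a large load of tRNA 5′ fragments. The A at position 58, in the T loop, is methylated in many tRNAs, and this modified base is known to be misread by reverse transcriptase.

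The sequences below carry results on the mature 3′ end. They are written 5′ to 3′ as read, with base 58 and the tail in capitals where the read covers them.
Lys-TTT, 34 nt: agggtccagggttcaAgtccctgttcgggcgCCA
Gly-GCC, 23 nt: ttcgAttcccggccaatgcaCCA
Gly-TCC, 22 nt: tcgAttcccggccaacgcaCCA
SeC, 32 nt: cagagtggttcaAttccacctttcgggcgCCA

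The next sequences also met the rule, but their CCA lies inside the tRNA. Here the capitals mark that inner CCA and, where the read reaches it, base 58.
Lys-CTT, 34 nt, thymine at 58: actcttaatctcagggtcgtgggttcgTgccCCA
Lys-CTT, 34 nt, guanine at 58: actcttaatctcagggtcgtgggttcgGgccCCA
Asn-GTT, 36 nt: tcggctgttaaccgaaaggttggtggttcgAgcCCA
mt-Tv, 35 nt: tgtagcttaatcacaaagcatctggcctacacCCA
SeC, 25 nt: ttagcgacagagtggttcaTttCCA
Gly, 34 nt: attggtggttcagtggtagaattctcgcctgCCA

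The members were 0.318% of the mouse tRNA-labelled reads (95% interval 0.300 to 0.336) and 0.139% of those of the rat (0.127 to 0.152). Intervals are exact binomial ones for shares and exact Poisson ones for single counts, and they cover counting error only. Of all listed reads they made up 0.171% for the mouse, against 0.0226% for the rat, where tRNA labels held a smaller part of the library. The rule left out 5 mouse sequences with 29 reads and 6 rat sequences with 21 reads for their 5′ ends, mostly 18 Val reads in the mouse and 15 Ala reads in the rat. The mouse table starts at identifier 4, and 78279 mouse and 63001 rat identifiers are not listed and were not analysed here, so all values are of the listed reads.

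Where the CCA lies in the tRNA separated the libraries. In a mature tRNA the T-loop bases TTC begin 23 bases before the 3′ end, or 24 bases in tRNA-SeC, whose acceptor arm is longer. Of the members of at least 23 nt, 1127 of 1172 reads had TTC at 23 bases in the mouse (96.2%, 94.9 to 97.2), against 6 of 371 reads in the rat (1.62%, 0.596 to 3.49). With either distance the shares were 96.8% for mouse reads, against 26.7% for rat reads. Among tRNA-labelled reads that do not end in CCA, TTC stood at 23 bases in 0.108% of mouse reads, against 0.157% of rat reads. Among reads of other labels that end in CCA, the order was the reverse of that of the members, 1.74% of mouse reads, against 24.5% of rat reads.

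Joined with the shorter reads of the same 3′ end, the tail-placed members were 64 sequences with 1145 reads in the mouse and 16 sequences with 149 reads in the rat. They made up 96.9% of the mouse member reads (95.7 to 97.8), against 31.3% of the rat ones (27.2 to 35.7). The remaining 37 mouse reads and 327 rat reads ended at a CCA elsewhere in the tRNA or could not be placed. The label of a 3′ tail therefore held for nearly all mouse reads and for a minority of the rat reads. Per 1000000 tRNA-labelled reads, there were 3076 tail-placed mouse reads, against 435 rat reads. On this scale the order holds only within the tRNA label. Tail ends of any label, described below, had 1817 mouse and 3255 rat reads, beside 372238 and 342754 tRNA-labelled reads.

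**Figure D1:**
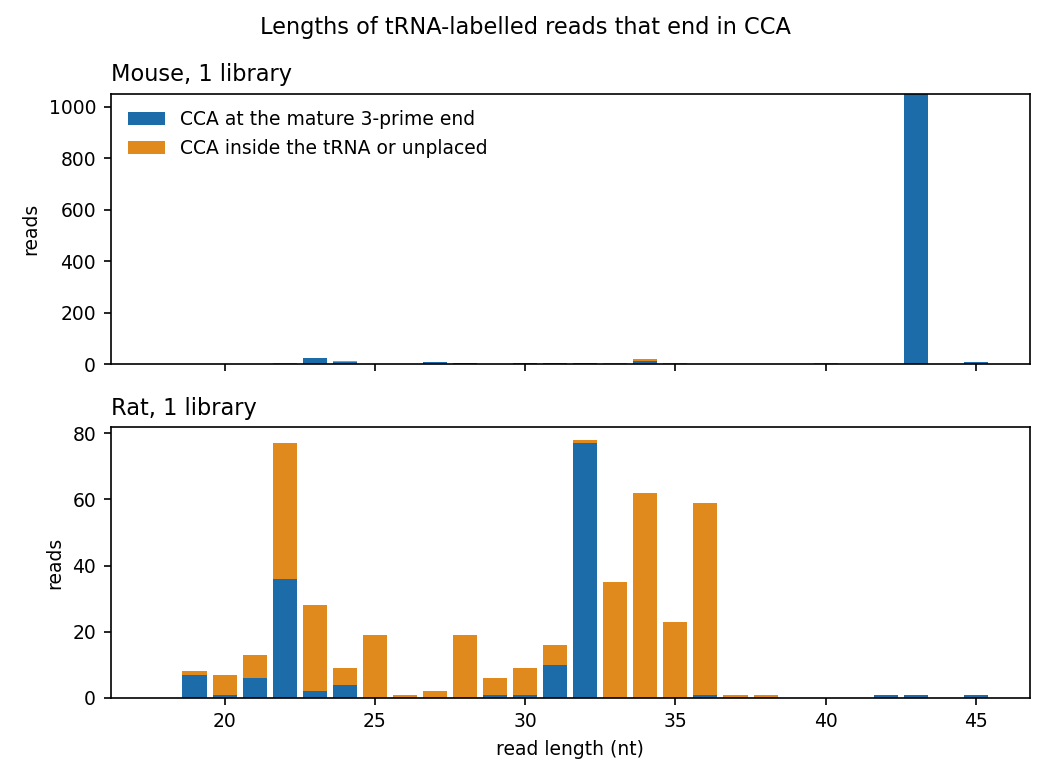
Reads by length (nt) of the tRNA-labelled reads that end in CCA, mouse above and rat below on separate read scales, 1 library each. Blue bars are reads whose CCA is at the mature 3′ end and orange bars are those with CCA inside the tRNA or unplaced. The mouse reads stand at 43 nt, and the rat tail reads stand at 22 and 32 nt among reads with an inner CCA.

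Length followed the same split. In the mouse, 43 nt was the modal length with 1051 of 1182 reads (88.9%, 87.0 to 90.7), and 93.2% of the reads were of 33 to 45 nt. In the rat the mode was 32 nt with 78 of 476 reads (16.4%), and the windows of 18 to 25, 26 to 32 and 33 to 45 nt held 33.8%, 27.5% and 38.7% of the reads. Counting only tail-placed reads, 33 to 45 nt held 94.6% of mouse reads, against 2.68% of rat reads. Among tRNA-labelled reads, long 3′ fragments were thus the main tail-placed form in the mouse, and fragments of at most 32 nt in the rat. The long mouse form rests on 1 end: that of Met-CAT, with 0 rat members, gave 1058 of those 1083 mouse reads. Of the 699 tail-placed mouse reads of other labels, described below, 99.1% were of 18 to 25 nt.

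**Figure D2:**
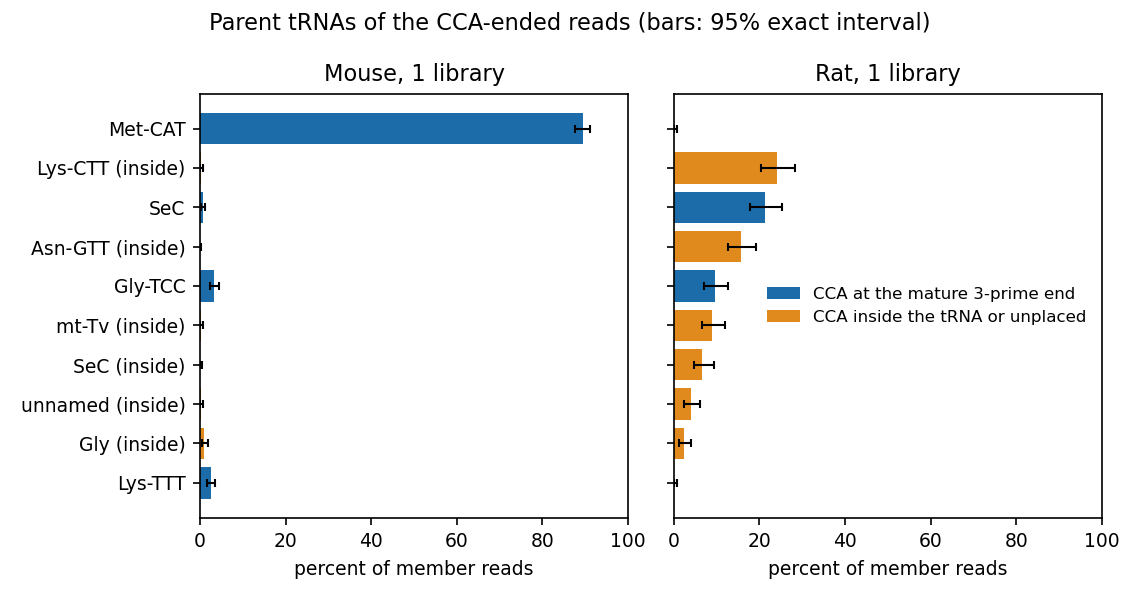
Share of the member reads (percent) from each of the 10 leading parents, mouse left and rat right, 1 library each, with exact 95% intervals for counting error. Blue bars are parents with CCA at the mature 3′ end, and orange bars are reads with CCA inside the tRNA or unplaced. The Met-CAT end holds 89.5% in the mouse and has 0 reads in the rat.

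The members fell into 42 groups of 3′ ends, of which 26 had mouse reads and 26 had rat reads. Of these, 12 held at least 1% of the member reads in either library, and the other 30 groups together had 27 mouse and 19 rat reads, with at most 7 reads in one group. The mouse members came almost wholly from 1 tRNA, whereas the rat members were spread over several.

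A 3′ end of Met-CAT tRNA, which reads the methionine codon, gave 1058 of the 1182 mouse member reads (89.5%, 87.6 to 91.2). It gave 0 of the 476 rat member reads (0%, up to 0.772%). Taking 3 counts as the limit of a count of 0, the level of this end per 1000000 tRNA-labelled reads was at least 325-fold higher in the mouse. Its reads came from 24 distinct mouse sequences. These values are of this 1 end. Another end, left unnamed, had 2 mouse and 19 rat reads. Its 30-nt read, with 6 rat reads, opens with the letters of the anticodon CAT. The 0 rat reads may therefore not apply to every Met-CAT tRNA.

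Lys-TTT, a lysine tRNA, was the other leading tail-placed parent with no rat member. It had 30 mouse reads (2.54% of the members) and 0 rat reads, at least 9.21-fold higher in the mouse. That bound is for reads with a tRNA label only. Under any label this end had 36 mouse and 7 rat reads. Their log2 ratio of mouse over rat, per 1000000 tRNA-labelled reads, was 2.19, which is below that bound. Its 18 sequences began at many places. The commonest lengths were 34 nt with 7 reads and 27 nt with 6 reads, which begin at positions 43 and 50, between the anticodon and the T loop.

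Glycine tRNA ends were tail-placed in both libraries, with 38 mouse reads (3.21% of the members) and 46 rat reads (9.66%). The log2 ratio of mouse over rat, in reads per 1000000 tRNA-labelled reads with a pseudocount of 1, was -0.39, the smallest in size among the 4 leading tail-placed parents. The ends of Gly-GCC and Gly-TCC differ by 1 base and were counted together. Most were short, although 3 mouse reads were of 45 nt: 21 of the 38 mouse reads were of 23 nt and began at position 54, and 36 of the 46 rat reads were of 22 nt and began at position 55. Among the tRNA-labelled reads, the 23-nt Gly-GCC read shown above had 19 mouse and 0 rat reads, and the 22-nt Gly-TCC read had 0 mouse and 36 rat reads. Under any label the same reads had 19 mouse and 6 rat reads, and 35 mouse and 36 rat reads, so the 22-nt read was absent from the mouse members by its label alone. Both starts lie at the TTC of the T loop, 1 base apart.

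SeC, the tRNA of selenocysteine, led the tail-placed members in the rat. It had 7 mouse reads (0.592% of the members) and 102 rat reads (21.4%, 17.8 to 25.4), a log2 ratio of -3.91. Of the 102 rat reads, 77 were of 32 nt, 10 were of 31 nt and 7 were of 19 nt. The 32-nt read shown above had 2 mouse reads and 77 rat reads (61 to 96). It was the most abundant rat member. In the mouse, 3 of the 7 reads were of 43 nt.

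The members with an inner CCA were mainly rat reads. Lys-CTT had 2 mouse and 115 rat reads (24.2% of the rat members, 20.4 to 28.3), and its TTC lay 11 bases before the 3′ end. The reads thus stop in the 3′ strand of the T arm, a few bases past base 58. Asn-GTT had 0 mouse and 75 rat reads (15.8%), at least 27.2-fold lower in the mouse, with TTC 10 bases before the end. The mitochondrial valine tRNA, mt-Tv, had 3 mouse and 43 rat reads. Its last 18 bases matched the mouse transcript exactly and its CCA is part of the gene's own sequence.

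SeC itself gave 1 mouse and 32 rat reads that stop at an inner CCA. The interior of the Gly 5′ fragment gave 12 mouse and 11 rat reads. An end that the naming steps used here left without a parent gave 2 mouse and 19 rat reads, and another gave 1 and 8. The first is the unnamed end set beside Met-CAT above. Val-TAC gave 1 mouse and 6 rat reads. In the named parents of this group the letters CCA stand before the mature 3′ end, and the place of the 2 unnamed ends was not determined.

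Mismatches to the deposited entries differed between the libraries. In the mouse, 672 of 1182 member reads (56.9%) had 0 mismatches to their database entry, 449 had 1 and 61 had 2. In the rat, 84 of 476 (17.6%) had 0, 99 had 1 and 293 had 2. All 149 tail-placed rat reads had 2 mismatches, and both lay in the last 3 bases. In SeC these were G-to-C changes within the tail in all 102 reads. In the mouse 57 of the 1145 tail-placed reads had a mismatch in the last 3 bases. Of the reads with an inner CCA, 6 of 37 mouse reads and 9 of 327 rat reads had one there. The Met-CAT entry matched the tail in every read, so its reads reached a whole tail with 0 tail mismatches.

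The deposited tables hold at most 2 mismatches per read. A read whose tail already takes 2 has no room for a further one. This bears on base 58 and on the tails described next.

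**Figure D3:**
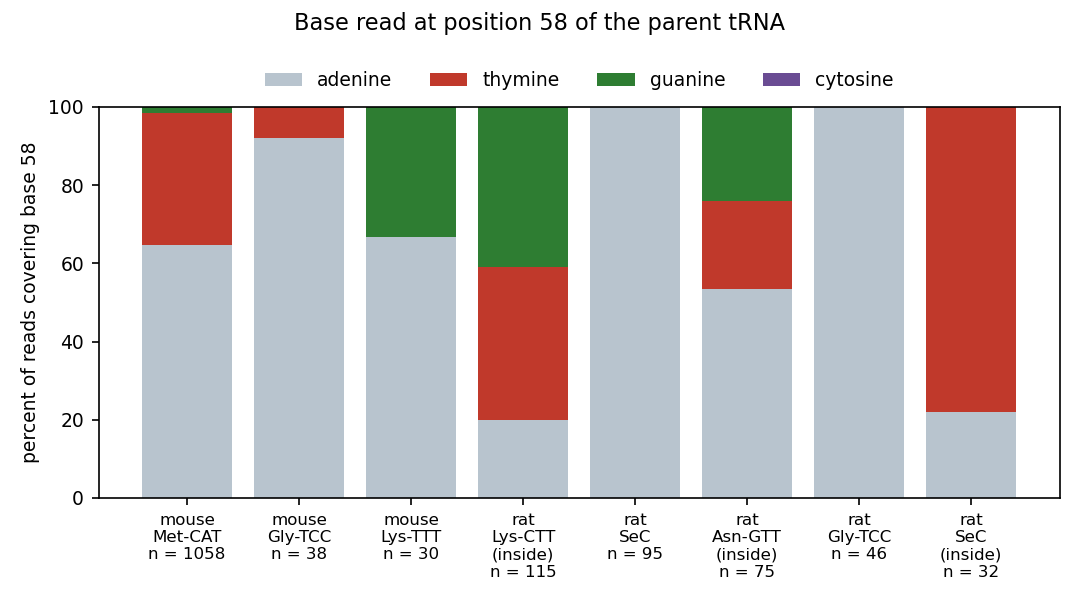
Percent of reads with each base at position 58 for parents with at least 10 member reads that cover it, the mouse parents left and the rat parents right, 1 library per species. Parents marked inside end at an inner CCA. Only adenine was read in the tRNA-labelled, tail-placed SeC and Gly reads of the rat, and thymine or guanine in part of the others.

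Base 58 was read as more than 1 base in several parents. In mouse Met-CAT it was not adenine in 373 of 1058 reads (35.3%, 32.4 to 38.2), as thymine in 357 and guanine in 16.

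In mouse Lys-TTT, 10 of 30 member reads had guanine at 58 and 0 had thymine. Under any label, 11 of the 36 mouse reads of this end had guanine and 6 had thymine. In the inner-CCA reads of the rat, base 58 was not adenine in 92 of 115 Lys-CTT reads (80%, 71.5 to 86.9), in 35 of 75 Asn-GTT reads (46.7%) and in 25 of 32 SeC reads (78.1%). Thymine and guanine were read at like numbers in Lys-CTT, 45 and 47, and in Asn-GTT, 17 and 18, whereas SeC had thymine alone.

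The tail-placed SeC and Gly reads of the rat with a tRNA label had adenine in 95 of 95 and 46 of 46 reads. These are the reads whose tail takes both allowed mismatches. Under any label, base 58 of the rat Gly-TCC end was not adenine in 246 of 292 reads (84.2%, 79.6 to 88.2), and thymine was read in 242 of them.

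**Figure D4:**
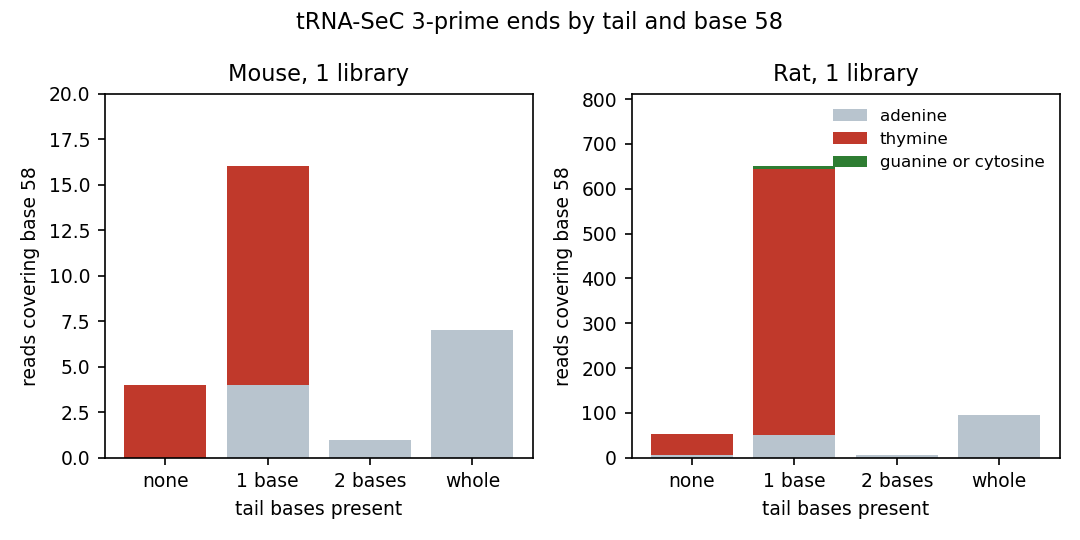
Reads of tRNA-SeC 3′ ends that cover base 58, by the number of tail bases present and the base at 58, mouse left and rat right on separate read scales. Thymine was read in the ends with no tail or 1 tail base, and only adenine in the ends with 2 or 3 tail bases.

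For SeC the tail could be followed base by base. Of the rat reads that cover base 58, thymine was read in 46 of 54 that ended before the tail (85.2%), in 594 of 650 that ended after its first C (91.4%, 89.0 to 93.4), in 0 of 7 after CC and in 0 of 95 after CCA. In the mouse, it was read in 4 of 4, 12 of 16, 0 of 1 and 0 of 7. The first C was a mismatch to the entry in all of those 650 rat and 16 mouse reads, and CC and CCA took 2 mismatches in every read. A CCA-ended SeC read with thymine at 58 would have 3 mismatches to this entry and would not be listed under it.

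Tail completeness has to be read beside this limit. In the tRNA-labelled reads, Met-CAT ended in CCA in 1044 of 1059 mouse reads (98.6%, 97.7 to 99.2), in CC in 14 and in C in 1. SeC ended in CCA in 7 of 28 reads in the mouse (25%) and in 102 of 823 reads in the rat (12.4%, 10.2 to 14.8), where 650 ended in C. Lys-TTT ended in CCA in 29 of 63 mouse reads and in 0 of 165 rat reads, all 165 of which stopped before the tail. No read of these 4 parents went on past CCA. Gly-TCC went the other way, with CCA in 12 of 16 mouse reads (75%) and in 46 of 48 rat reads (95.8%). The Met-CAT end, which had 0 rat members, gave 1059 of the 1166 mouse reads of the 4 parents. Over these unlike mixtures of parents CCA ended 93.7% of mouse reads, against 14.3% of rat reads. The part of the mismatch limit in this difference was not tested.

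**Figure D5:**
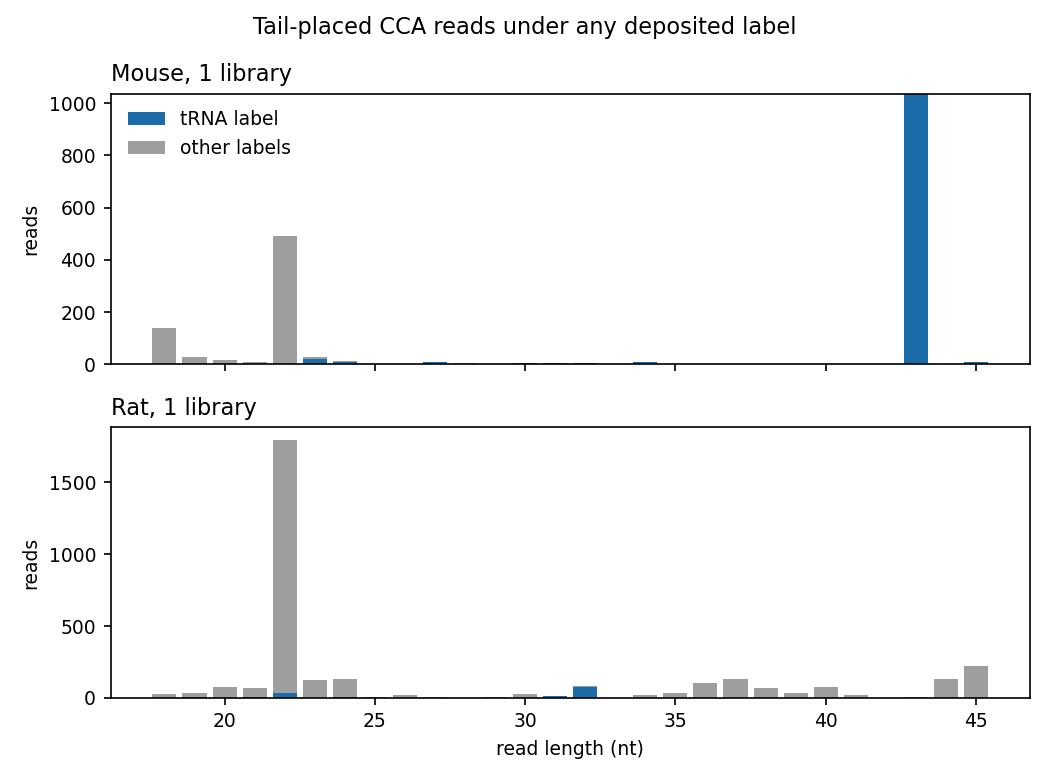
Reads by length (nt) whose CCA is at the mature 3′ end under any deposited label, mouse above and rat below on separate read scales. Blue bars have a tRNA label and grey bars another label. All 493 mouse and 1760 of 1796 rat reads of 22 nt are grey, and the mouse 43-nt reads are blue.

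Most tail-placed reads of the rat stood outside the tRNA label. Ends of any label were taken where the T-loop bases stood at the mature distance in over 50% of the longer reads, with at least 10 reads over both libraries. They held 1817 mouse reads (0.263% of all listed reads) and 3255 rat reads (0.155%). Of these, 699 mouse reads (38.5%, 36.2 to 40.8) and 3107 rat reads (95.5%, 94.7 to 96.1) had another label. In the mouse 680 were labelled mir-1937, and in the rat 2890 were labelled mRNA. Over any label, the lengths of 43 to 45 nt held 57.6% of mouse reads, against 11.0% of rat reads, and 22 nt held 27.1% of mouse reads, against 55.2% of rat reads.

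The following reads stood mainly under those other labels, with base 58 and the tail in capitals.
Gly-GCC, 22 nt, thymine at 58: tcgTttcccggccaatgcaCCA
Gly-GCC, 22 nt, adenine at 58: tcgAttcccggccaatgcaCCA
Gly-GCC, 44 nt: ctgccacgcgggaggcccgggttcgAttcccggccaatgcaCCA
Gly-GCC end changed at 1 base, 22 nt: tcgTttcccggcccatgcaCCA
Asp-GTC, 45 nt: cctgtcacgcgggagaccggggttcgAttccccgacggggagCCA

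The Gly-GCC end had 515 mouse reads and 1009 rat reads, of which 435 and 796 were of 22 nt. Per 1000000 listed reads it stood at 745 for the mouse, against 479.9 for the rat, a log2 ratio of 0.63. The direction turned with the scale: per 1000000 tRNA-labelled reads the same counts were 1384 for the mouse, against 2944 for the rat, a log2 ratio of -1.09. A tRNA label stood on 25 mouse reads and on 0 rat reads. The 22-nt read with thymine had 277 mouse and 700 rat reads, and that with adenine had 155 mouse and 71 rat reads. Base 58 was not adenine in 60.9% of mouse reads (56.4 to 65.2), against 85.8% of rat reads (83.5 to 87.9). In the rat reads of 33 to 45 nt of the same end it was adenine in 52 of 52, against 90 of 931 in the reads of up to 24 nt. None of the 1009 rat reads took a mismatch in the tail. The part of the mismatch limit in this difference by length was not tested.

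An end that differs from that of Gly-GCC by 1 base had 2 mouse reads and 775 rat reads, and 710 of its 774 rat reads that cover base 58 did not have adenine there. The 5′ start complementary to its acceptor strand opened 905 mouse and 7066 rat tRNA-labelled reads. The Gly-TCC end had 97 mouse and 292 rat reads, and stood at 140.3 in the mouse, against 138.9 in the rat, per 1000000 listed reads. Per 1000000 tRNA-labelled reads it stood at 260.6 in the mouse, against 851.9 in the rat, a log2 ratio of -1.71. The Lys-CTT tail had 0 mouse and 81 rat reads, with base 58 not adenine in 52 of 81 (64.2%, 52.8 to 74.6), beside 80% in the inner-CCA reads of the same tRNA.

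Asp-GTC, the aspartate tRNA, ended in CCA in 0 mouse reads and 751 rat reads, all labelled mRNA. Of the rat reads 211 were of 45 nt, and base 58 was not adenine in 150 of 751. The mouse library did hold this 3′ end, with 123 reads ending before the tail, 406 after C and 138 after CC, all with a tRNA label. The rat had 166, 426 and 131 of those forms. In the mouse, C took 1 mismatch in all 406 reads and CC took 2 in all 138, whereas CC and CCA took 0 in the rat. The mouse absence of CCA at this end thus stands at the mismatch limit and cannot be told apart from it.

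Few members were shared. Of 91 mouse and 108 rat members, 14 sequences were in both, with 23 mouse and 133 rat reads, and 5 of them were tail-placed. The most abundant was the 32-nt SeC read. Over these 14 sequences, mostly of a few reads, Pearson's r between the log10 reads was 0.0021 and Spearman's rho 0.096, given as a description. Single reads made up 57 of the mouse and 63 of the rat members, and 4 mouse and 12 rat members had at least 10 reads.

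As a check of the sperm label, miRNAs known from male germ cells summed to 297 mouse and 6180 rat reads, and all 3 were detected in both. Those of stroma and smooth muscle summed to 2412 mouse and 843 rat reads, of which miR-143-3p gave 2392 and 813. Those of epithelium summed to 232 mouse and 130 rat reads, of which miR-141-3p gave 218 and 104. These are raw counts, from 691381 mouse and 2102735 rat listed reads. Of the other members of both lists, miR-145a-5p (13 mouse and 15 rat reads), miR-199a-3p (7 and 15), miR-200a-3p (3 and 18) and miR-200b-3p (1 and 2) had more rat reads. In contrast, miR-200c-3p (4 and 1) and miR-429-3p (6 and 5) had more mouse reads. Those of blood summed to 40 and 1, with 3 of 5 blood miRNAs at 0 in the mouse and 4 of 5 in the rat. The part of other cells in the tRNA fragments was not tested, and in such bulk RNA fewer cells of a type and less RNA per cell cannot be told apart.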

How the data were processed

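Small RNA reads of 1 mouse and 1 rat library of cauda sperm were analysed, with total listed counts of 691381 and 2102735. The deposited values are counts: per the file headers, the authors gave each distinct sequence its number of reads, strand, 1 entry of miRBase, Rfam or GenBank and at most 2 mismatches. The submitters' processing notes name Bowtie 0.12.7 and the genome builds mm9 and rn5 without roles. How adapters were trimmed, and how 1 of several matches was chosen, is not stated in them.

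Sequences matched on the minus strand were turned round. A 5′ match was at most 1 mismatch to 78 starts with at least 10 reads (first 18 nt, with 1 extra base allowed before them). No Met start had that many reads, so none was matched, and 0 members began with the first 7 bases listed for Met tRNA. Members were grouped by their last 18 nt, joined within 1 mismatch, and named from the anticodon in the reads, the entry or GENCODE M21. The place of the CCA was set by the T-loop TTC. Tails were counted after the 15 bases before them. The text names parents with at least 1% of member reads in either library, the 5 most abundant members of each library and the leading member of 10 parents; ends of other labels were named after their values were seen. Single sequences of 1 parent are not reported here. Members and lists were chosen with earlier results of these data known.

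In the mouse, 2535 rows with a date in place of a count were left out. A count of 0 allows 3 counts, or 0.000806% of tRNA-labelled mouse reads and 0.000875% of rat ones, for sequences the tables would list. PCR copies are not independent molecules. The rule was tested on simulated data with Python 3.11.15, NumPy 2.4.6 and SciPy 1.17.1, and matplotlib 3.10.9 drew the figures. Alternatives covered the 5′ match, low counts, perfect matches, distinct sequences, grouping, the T-loop distance and the label.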

Additional observations from a re-analysis of the deposited data

Results flagged for a closer look

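Reads longer than the 45-nt limit of the rule were outside the comparisons. In the mouse, 112 tRNA-labelled reads over 45 nt ended in CCA, above the limit of 3 counts, and 0 did in the rat. The most abundant sequence just outside the limit was of 46 nt and had 56 reads.

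One mouse sequence that meets the rule stood in a row with a date in place of its count. Taking the month as the count gives 12 reads.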

How the results depend on the processing

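No paired analysis was possible because there was 1 library per species and no test. Leaving out a replicate was not possible for the same reason. In all, 21 alternative shares stayed within the interval of the value reported and 41 did not. The shares of tRNA-labelled reads were 0.318% in the mouse and 0.139% in the rat. They became 0.281% and 0.0832% with at least 10 reads, 0.527% and 0.0924% with perfect matches, 1.91% and 1.69% over distinct sequences, 0.506% and 0.561% with any label sharing a member's last 18 nt, and 0.146% and 0.116% without the most abundant member. The order of mouse over rat held in these except that with any label. Over distinct sequences the intervals overlapped, 1.54 to 2.34 for the mouse and 1.39 to 2.03 for the rat. In the rat the share was 0.0435% with tail-placed reads and 0.00175% with TTC at exactly 23 bases.

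The share at 33 to 45 nt became 85.3% in the mouse and 46.1% in the rat without the most abundant member, 97.9% and 67.9% with perfect matches, and 58.6% and 25.7% over tail ends of any label. In the mouse it was 98.15% with at least 10 reads and 52.7% over distinct sequences, and in the rat 2.68% over tail-placed reads. The share with TTC at the tail distance was 100% (at least 10 reads) and 66.7% (distinct sequences) in the mouse, and 0% (at least 10 reads) and 26.95% (within 1 base) in the rat. Reads with a mismatch were 37.9% (at least 10 reads) and 81.3% (distinct sequences) in the mouse, and 100% of the tail-placed rat reads.

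Met-CAT held 98.15% of the mouse members with at least 10 reads, 26.4% over distinct sequences, 96.0% at 33 to 45 nt, 56.1% with any label sharing an end and 57.5% over tail ends of any label. Lys-CTT held 9.66% of the rat members with exact ends, 29.3% with at least 10 reads, 17.6% over distinct sequences, 31.0% at 33 to 45 nt and 5.96% with any label. Whole tails were 47.4% in the mouse and 23.4% in the rat over distinct sequences, and 30.5% in the rat with any label. The cause was not tested. Tail ends of any label, tail-placed reads and dates as counts were chosen after seeing the data. The 149 tail-placed rat reads are a small count, at a tRNA-labelled depth of 342754 reads beside 372238 in the mouse, and 95.5% of the rat tail ends of any label had another label. Per 1000000 tRNA-labelled reads in place of listed reads, a scale added after seeing the data, the log2 ratio of mouse over rat turned from 0.63 to -1.09 for the Gly-GCC end and from 0.015 to -1.71 for the Gly-TCC end.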
